A study of Mus musculus with 56 samples.

Results

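Carboxylesterase mRNA was examined in mouse liver across thyroid hormone states and in mice with a mutant nuclear receptor corepressor 1 (NCOR1). The 10 genes described are Ces1b, Ces1c, Ces1d, Ces1e, Ces1f, Ces1g, Ces2a, Ces2e, Ces3a and Ces3b, chosen as members of the family and each taken as the first transcript listed under its symbol, out of 23813 genes in the deposited RNA-seq table. All 10 were found. The table covers 12 of the 56 samples of the series, 4 independent male mice in each of 3 groups. Hypothyroid WT mice were fed 0.15% propylthiouracil (PTU), which blocks thyroid hormone synthesis, in iodine-poor food for 16 days. Hyperthyroid WT mice were fed alike and injected with 5 ug triiodothyronine (T3) during the last 4 to 6 days, when the others received vehicle. The third group consisted of hypothyroid L-NCOR1ΔID mice, which carry a liver-specific NCOR1 mutant lacking 2 of its domains that bind the thyroid hormone receptor (TR). The mutant mice had a mixed C57BL/6 and 129S background, the strain of the WT mice used for RNA is not given in the sources used here, and all 12 mice received PTU. By the paper's averages over its mice, mutant mice were younger and had heavier livers than hypothyroid and hyperthyroid WT mice. The ages of these 12 mice are not given.

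Carboxylesterases are serine hydrolases that split ester and amide bonds in lipids, drugs and other foreign compounds, and the liver is a main site of their expression. Most of the mouse enzymes are held in the endoplasmic reticulum (ER), where several hydrolyse triacylglycerol stored in lipid droplets, while Ces1c is secreted into plasma. In the classical model, TR bound to DNA without hormone recruits corepressor complexes with histone deacetylases, and T3 releases them. The paper proposes that this model covers only a part of the enhancers that respond to T3. The genes lie in tandem arrays, and neighbours can be close copies of each other.

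On the mm9 build the Ces1 genes form a cluster at chr8:95544113-95903624 on the minus strand, with 6 of the 10 genes among its 8, and the Ces2, Ces3 and Ces4 genes form another at chr8:107257903-107674009 on the plus strand, with the other 4 among its 11. RefSeq promoters (from the GRCm38.p6 build), each from 250 bases before to 50 after a gene's start, were at hand for 7 of the 10 genes and matched mm9 exactly. Those of Ces1b and Ces1c are shown because these neighbours are near copies whose mRNA levels behaved differently. In the first pair, capitals mark the bases that differ or have no partner in the alignment of the 2 promoters, at chr8:95603790-95604089 and chr8:95655133-95655432 on the minus strand, with the start nearest the coding region taken for Ces1b.
Ces1b: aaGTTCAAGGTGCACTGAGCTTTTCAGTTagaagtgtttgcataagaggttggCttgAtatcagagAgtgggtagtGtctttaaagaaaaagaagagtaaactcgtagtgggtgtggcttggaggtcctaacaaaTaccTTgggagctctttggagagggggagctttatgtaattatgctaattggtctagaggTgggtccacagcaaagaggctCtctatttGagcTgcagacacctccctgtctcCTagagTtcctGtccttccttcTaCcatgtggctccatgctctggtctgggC
Ces1c: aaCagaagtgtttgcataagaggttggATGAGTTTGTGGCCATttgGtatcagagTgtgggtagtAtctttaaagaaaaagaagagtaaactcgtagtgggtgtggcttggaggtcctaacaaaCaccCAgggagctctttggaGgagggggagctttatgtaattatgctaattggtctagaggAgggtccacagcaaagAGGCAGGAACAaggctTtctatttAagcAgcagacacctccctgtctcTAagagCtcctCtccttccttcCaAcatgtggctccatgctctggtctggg
Over 273 aligned bases 255 were identical (93.4%), and 18 differed. Apart from the 2 overlapping entries for Ces1b, the next closest pair was Ces2a and Ces2e at 69.4% of 265 aligned bases. The Ces2a promoter, at chr8:107257653-107257952 on the plus strand, and the Ces2e promoter, at chr8:107449910-107450209 on the plus strand, are shown because Ces2a was the 1 gene called both under T3 and in the mutant, in opposite directions, while Ces2e was called under T3 only. Capitals mark the AGGTCA motif, the element that nuclear receptors such as TR recognise.
Ces2a: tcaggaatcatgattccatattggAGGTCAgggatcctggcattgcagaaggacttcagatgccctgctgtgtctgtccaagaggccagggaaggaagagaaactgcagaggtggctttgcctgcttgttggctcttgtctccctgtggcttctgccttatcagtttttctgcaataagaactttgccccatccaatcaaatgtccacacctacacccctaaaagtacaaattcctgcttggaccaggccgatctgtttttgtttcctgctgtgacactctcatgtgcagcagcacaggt
Ces2e: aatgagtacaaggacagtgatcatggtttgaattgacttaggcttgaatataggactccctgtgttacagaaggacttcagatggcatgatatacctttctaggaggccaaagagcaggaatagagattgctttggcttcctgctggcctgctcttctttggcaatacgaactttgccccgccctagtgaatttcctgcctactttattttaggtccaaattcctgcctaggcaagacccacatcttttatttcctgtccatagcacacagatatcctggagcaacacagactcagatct
Of the members' 8 promoter entries, that of Ces2a alone held AGGTCA on either strand, a motif present in 16.3% of 32851 mouse promoters of this length. None held a direct repeat bound by TR, AGGTCA followed by any 4 bases and AGGTCA again (0.0152% of all promoters, either strand), the same repeat spaced by 1 base (0.0396%) or CAAAGTCCA, a sequence bound by HNF4A (0.475%). A missing match says only that these letters are absent from this window.

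In hypothyroid WT liver the 10 genes ranged from 90.8 ± 41.2 RPKM (SD, n = 4) for Ces3b to 751 ± 90.0 for Ces1c, which ranked 69 of 23813 genes. RPKM is a read density scaled to transcript length and library size, so levels can be compared between genes. From the smallest steps in the values, the libraries held an estimated 21120000 to 41840000 reads, and an estimated 715 to 68096 reads stood behind each value of a member, so counting error was small beside the spread between mice. Over all genes a library summed to 377335 to 412558 RPKM. The check genes fit the labels for hormone: Dio1 was 6.20 and Thrsp 2.29 higher under T3 on the log2 scale (adjusted p = 0.0012 and 0.00081, limma). Without hormone Dio1 varied widely between libraries. It measured 0.719, 6.64, 57.7 and 8.98 RPKM in hypothyroid WT and 0.567, 0.591, 20.9 and 12.1 in L-NCOR1ΔID liver, against 459 to 641 under T3. Ncor1 mRNA was 14.1 to 15.6 RPKM in hypothyroid WT and 12.1 to 13.9 in L-NCOR1ΔID liver, a value that does not show whether the deleted exons are missing.

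**Figure D1:**
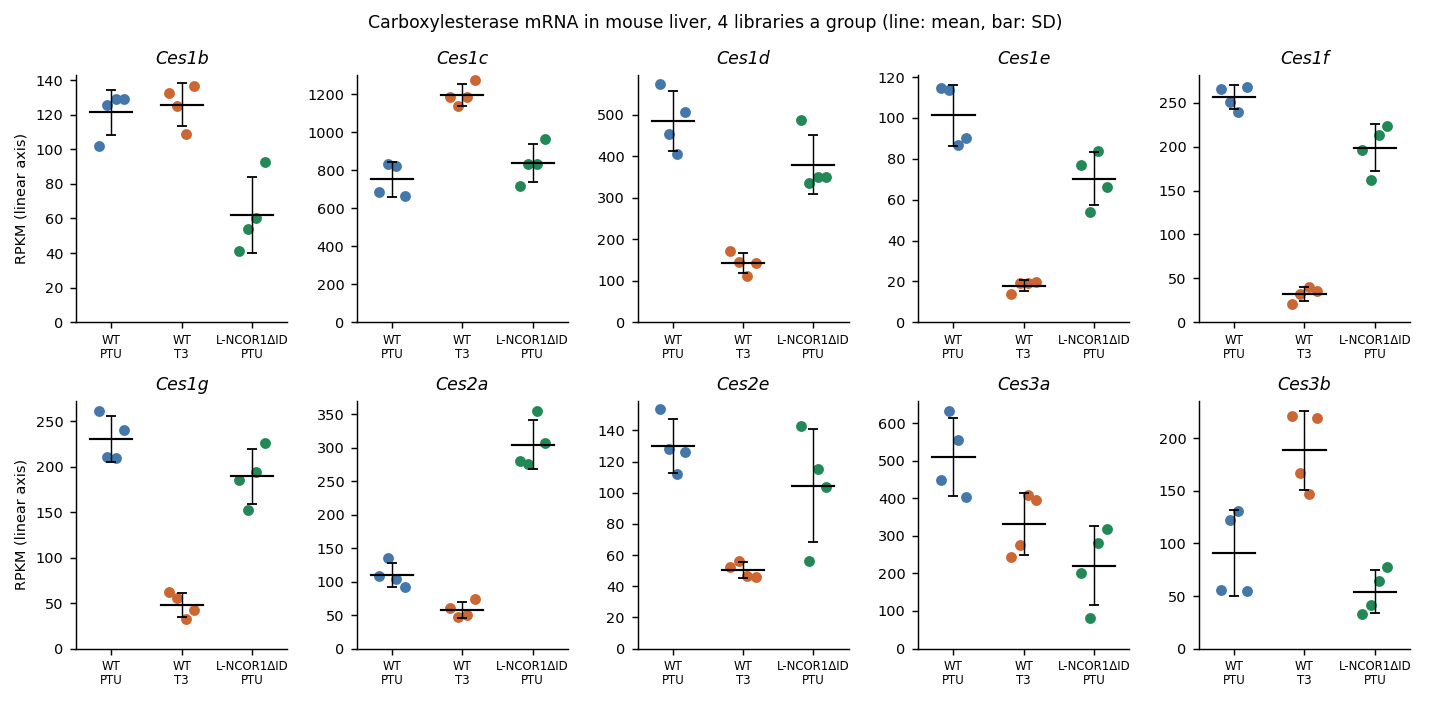
RPKM of the 10 carboxylesterase genes (linear y axis from 0) in each of the 4 libraries of hypothyroid WT (blue), hyperthyroid WT (orange) and hypothyroid L-NCOR1ΔID liver (green), with the mean as a line and the SD as a bar. Ces1d, Ces1e, Ces1f and Ces1g were low in hyperthyroid libraries, Ces1c was high there, and Ces2a was high in L-NCOR1ΔID libraries.

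The first comparison asked how T3 affected the family in WT liver. T3 lowered 6 of the 10 genes (Ces1d, Ces1e, Ces1f, Ces1g, Ces2a and Ces2e) and raised Ces1c in limma's moderated test at an adjusted p under 0.01, over 13941 genes. Of all genes tested, 7.71% were lower and 24.5% higher by the same rule. For all 6 the groups did not overlap, against 10.8% of all genes in the lower direction, and for Ces1c and Ces3b they did not overlap in the higher direction, against 35.8%. Of the 6, 5 fell by more than 1 on the log2 scale, against 3.47%. The median log2 fold change was -1.15 over the 10 genes and 0.23 over all genes. That general shift of 0.23 became 0.01 when libraries were scaled by the median of their gene ratios, and calls over all genes then went from 3413 higher and 1075 lower to 1716 and 1941. After scaling the 6 genes were still lower and Ces1c no longer passed (log2 fold change 0.44, limma adjusted p = 0.019).

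Among the genes described, Ces1f, Ces1e, Ces1g and Ces1d showed the steepest falls. Ces1f (TGH-2), a triacylglycerol hydrolase, measured 266, 251, 239 and 268 RPKM in hypothyroid WT liver, 20.6, 32.5, 40.2 and 35.3 in hyperthyroid WT liver, and 196, 162, 213 and 223 in L-NCOR1ΔID liver. Every hyperthyroid library lay far below the other 8, and the mutant libraries lay just below hypothyroid WT. T3 lowered the mean 7.97-fold (log2 fold change -3.03 ± 0.18 SE, limma adjusted p = 7.5e-06). Ces1e (egasyn), which retains beta-glucuronidase in the ER, went from 115, 114, 86.7 and 90.1 RPKM in hypothyroid to 13.7, 19.3, 19.0 and 19.5 in hyperthyroid WT liver. Its groups were clearly separate, with a 5.65-fold lower mean under T3 (-2.49 ± 0.14 SE, adjusted p = 6.6e-06 by limma). Gusb, which encodes beta-glucuronidase, differed by 0.23 (adjusted p = 0.11), equal to the shift of all genes.

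Ces1g, an esterase linked to lipid synthesis in hepatocytes, measured 261, 211, 209 and 241 RPKM in hypothyroid WT liver and 61.7, 55.1, 32.1 and 42.2 under T3. All hyperthyroid values lay below the lowest hypothyroid one, and the mean was 4.82-fold lower (-2.31 ± 0.19 SE, limma adjusted p = 3.1e-05). Ces1d (TGH), the triacylglycerol hydrolase that supplies lipid for very low density lipoprotein, measured 573, 454, 406 and 506 RPKM without and 171, 145, 113 and 143 with T3. This separation corresponded to a 3.39-fold lower mean (-1.77 ± 0.15 SE, limma adjusted p = 3.3e-05). Among these 4 genes the fall was smallest for Ces1d (95% confidence interval -2.09 to -1.44) and largest for Ces1f (-3.44 to -2.63).

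Ces1c and Ces1b, in the same cluster, did not fall. Ces1c, the secreted plasma esterase, rose from 685, 833, 825 and 663 RPKM to 1187, 1136, 1183 and 1273, and no hypothyroid library reached the hyperthyroid range. The mean was 1.59-fold higher (0.68 ± 0.11 SE, limma adjusted p = 0.0013). Ces1b measured 102, 125, 129 and 129 RPKM in hypothyroid and 133, 125, 109 and 137 in hyperthyroid WT liver. These groups overlapped throughout (0.05 ± 0.10 SE, adjusted p = 0.70 by limma, 95% confidence interval -0.18 to 0.29).

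In the other cluster Ces2a, an ER enzyme that cleaves drug esters and neutral lipids, measured 109, 135, 104 and 92.2 RPKM in hypothyroid and 60.6, 47.9, 50.3 and 74.0 in hyperthyroid WT liver. The groups were separate and the mean 1.89-fold lower under T3 (-0.93 ± 0.16 SE, limma adjusted p = 0.0014). Ces2e, of the same subfamily, measured 154, 128, 112 and 126 RPKM without and 52.6, 56.3, 46.6 and 45.8 with T3, again without overlap (-1.36 ± 0.11 SE, limma adjusted p = 2.8e-05). Ces3a and Ces3b, carboxylesterases expressed mainly in liver, did not pass the threshold. Ces3a measured 448, 632, 555 and 403 RPKM without and 244, 276, 410 and 395 with T3, and the highest hyperthyroid value lay within the hypothyroid range (-0.63 ± 0.20 SE, limma adjusted p = 0.028). It passed after the scaling by gene ratios (-0.87, adjusted p = 0.0057).

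Ces3b measured 55.8, 122, 131 and 54.7 RPKM in hypothyroid WT liver and 221, 167, 147 and 219 under T3. The groups did not overlap, but hypothyroid libraries fell at 2 levels, with replicates 2 and 3 high (1.15 ± 0.31 SE, limma adjusted p = 0.013). Without hypothyroid replicate 2 the value was 1.34 (adjusted p = 0.0097) and without replicate 3 it was 1.37 (adjusted p = 0.0061), which passed.

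In whole liver, fewer cells of a type and less RNA per cell cannot be told apart. Summed hepatocyte markers (Alb, Ttr, Apoa1, Cps1 and Tat) were 37551 to 49196 RPKM in hypothyroid and 19352 to 27887 in hyperthyroid WT liver, with 2 of 5 lower (Alb -1.16 and Ttr -1.55) and the other 3 not called, and after scaling by gene ratios Alb was -1.40 with an adjusted p of 0.024 by limma. All 5 Kupffer cell markers (Clec4f, Cd5l, Adgre1, Vsig4 and Marco) were higher under T3, and their sums were 35.6 to 50.1 and 117 to 197 RPKM. In L-NCOR1ΔID liver these sums were 31422 to 35593 and 42.4 to 115 RPKM. Of 5 stellate and endothelial markers Lrat and Dcn were higher under T3, and of 5 cholangiocyte markers Krt7 was higher and Sox9 lower. Of 5 blood cell markers Hbb-b1, Hba-a1 and Ptprc were higher and Alas2 lower, against 24.5% and 7.71% of all genes. Alas2 was also lower in L-NCOR1ΔID than in hypothyroid WT liver (0.544% of all genes). Set against L-NCOR1ΔID liver, hyperthyroid liver was higher in Clec4f, Vsig4, Clec4g and Cd3e and lower in Ttr and Alas2. Of all genes 15.5% were higher and 5.7% lower in that comparison. The part of these cell types in the results was not tested. Of markers for tissues that express some of these genes strongly, 4 of 5 enterocyte markers were under 0.1 RPKM on average in both WT groups, while Fabp2 measured 45.9 to 58.7 RPKM in hypothyroid and 22.2 to 38.4 in hyperthyroid WT liver, without overlap. The adipocyte markers summed to 1.28 to 5.37 RPKM in hyperthyroid and 1.67 to 4.12 in hypothyroid WT liver. In L-NCOR1ΔID liver they summed to 0.725 to 9.34 RPKM, and 3 of 5 enterocyte markers were under 0.1 RPKM on average.

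The second comparison set hypothyroid L-NCOR1ΔID liver against hypothyroid WT liver. It shares the 4 hypothyroid WT libraries with the first. Strain and age, described above, may also differ between these groups and cannot be told apart from genotype. Ces2a alone was higher in L-NCOR1ΔID liver and 0 genes were lower by limma at an adjusted p under 0.01. Of 13790 genes tested 0.725% were higher and 0.544% lower by that rule. At an unadjusted p under 0.05, 5 of the 10 genes were below WT (Ces1b, Ces1d, Ces1e, Ces1f and Ces3a), against 7.77% of all genes. The groups did not overlap for 4 of these, all but Ces1d, in the lower direction, against 5.36% of all genes, and for Ces2a in the higher direction, against 7.78%. The median log2 fold change was -0.38 over the 10 genes and 0.03 over all genes.

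Ces2a measured 281, 275, 355 and 307 RPKM in L-NCOR1ΔID liver, against 92.2 to 135 in hypothyroid WT liver. The lowest mutant value lay well above the highest WT value, and the mean was 2.77-fold higher (1.47 ± 0.13 SE, limma adjusted p = 0.00059). Ces2e, whose promoter is shown beside that of Ces2a, measured 143, 56.0, 115 and 104 RPKM and overlapped WT (-0.38 ± 0.25 SE, limma adjusted p = 0.43).

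Ces1b measured 41.1, 54.1, 60.5 and 92.8 RPKM in the mutant, all below the WT range of 102 to 129 (-1.02 ± 0.22 SE, limma adjusted p = 0.034). Replicate 4 was the highest of these, and without it the log2 fold change was -1.24 and passed the threshold (adjusted p = 0.0038). Ces3a measured 200.3, 80.8, 281 and 318 RPKM, all below the WT range of 403 to 632, with replicate 2 lowest (-1.36 ± 0.39 SE, limma adjusted p = 0.088). Ces1e measured 76.8, 54.2, 83.7 and 66.3 RPKM (-0.53 ± 0.15 SE, limma adjusted p = 0.086), and the Ces1f values given above differed by -0.38 ± 0.11 SE (adjusted p = 0.090 by limma). For both genes the mutant libraries lay below all 4 WT libraries by a narrow margin.

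The remaining genes overlapped hypothyroid WT. Ces1c measured 716, 835, 835 and 963 RPKM (0.16 ± 0.13 SE, limma adjusted p = 0.54). Ces1d measured 487, 334, 349 and 348 RPKM (-0.36 ± 0.15 SE, limma adjusted p = 0.22), and Ces1g measured 185, 153, 194 and 226 RPKM (-0.29 ± 0.13 SE, limma adjusted p = 0.24). Ces3b measured 33.0, 41.9, 64.3 and 77.2 RPKM (-0.71 ± 0.37 SE, limma adjusted p = 0.31).

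**Figure D2:**
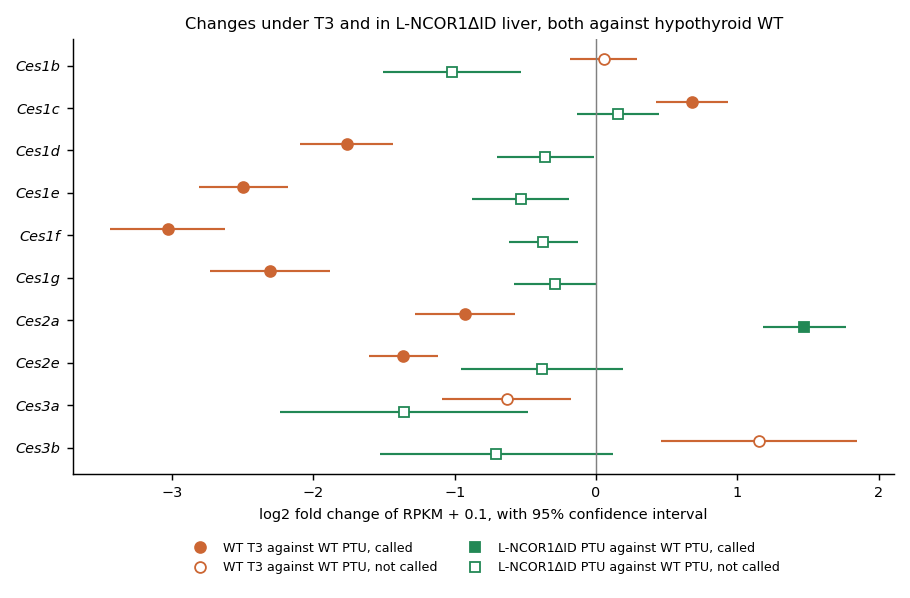
Log2 fold change with its 95% confidence interval (x axis) of each gene (y axis) for hyperthyroid against hypothyroid WT liver (orange circles) and for hypothyroid L-NCOR1ΔID against hypothyroid WT liver (green squares), filled where the adjusted p was under 0.01. Ces2a is the gene with filled symbols on both sides of 0, at -0.93 under T3 and 1.47 in the mutant.

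Hyperthyroid WT liver was then set directly against hypothyroid L-NCOR1ΔID liver, groups that differ in both hormone and genotype, as the test of the difference between both effects. By limma 5 genes were lower under T3 (Ces1d, Ces1e, Ces1f, Ces1g and Ces2a) and 2 higher (Ces1b and Ces3b). Of 14017 genes tested 5.7% were lower and 15.5% higher by the same rule. For these 5 the groups did not overlap, against 9.57% of all genes, and in the higher direction they did not for Ces1b, Ces1c and Ces3b, against 28.7%. The difference was largest for Ces1f (-2.66 ± 0.20 SE, adjusted p = 3.6e-05), followed by Ces2a, whose mean was 5.23-fold lower under T3 than in the mutant (-2.40 ± 0.15 SE, adjusted p = 1.5e-05). Ces1g differed by -2.02 ± 0.21 SE (adjusted p = 0.00017), Ces1e by -1.96 ± 0.16 SE (adjusted p = 5.6e-05) and Ces1d by -1.41 ± 0.16 SE (adjusted p = 0.00032). The falls of these Ces1 genes under T3 were thus larger than the differences seen in the mutant.

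Ces3b was 3.49-fold higher under T3 than in L-NCOR1ΔID liver (1.86 ± 0.26 SE, limma adjusted p = 0.00091). Ces1b was 2.03-fold higher (1.07 ± 0.22 SE, limma adjusted p = 0.0049), a call that was lost when any of 6 libraries was left out (each hyperthyroid replicate and mutant replicates 2 and 3; adjusted p 0.011 to 0.015) and after scaling by gene ratios (0.88, adjusted p = 0.022). Ces1c (0.52 ± 0.14 SE, adjusted p = 0.018 by limma) and Ces2e (-0.98 ± 0.25 SE, adjusted p = 0.014) did not pass. In a fit of all 12 libraries both did (adjusted p = 0.0049 and 0.0042 by limma), and Ces1c also did among genes with a mean of at least 1 RPKM (adjusted p = 0.0079) and without a variance trend (adjusted p = 0.0078). Without L-NCOR1ΔID replicate 2, in which Ces2e was lowest, that gene differed by -1.25 (adjusted p = 0.00041). For Ces3a the difference was 0.73 ± 0.40 SE (adjusted p = 0.18 by limma).

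Neighbouring genes were next compared within a library, which does not depend on scaling between libraries. Both ratios were chosen after their values were seen, and 6 tests were made. The ratio of Ces1c to Ces1b was 6.70, 6.64, 6.40 and 5.13 in hypothyroid WT, 8.94, 9.07, 10.9 and 9.31 in hyperthyroid WT and 17.4, 15.4, 13.8 and 10.4 in L-NCOR1ΔID liver. Hypothyroid WT was thus lowest without overlap. The mean log2 ratio was 0.62 higher under T3 and 1.18 higher in the mutant, each with an exact two-sided permutation p = 0.0286, the smallest that 4 against 4 libraries allow, and a Benjamini-Hochberg adjusted p = 0.0571. The rise under T3 came with higher Ces1c and an overlapping Ces1b, whereas in the mutant Ces1b was the lower of the pair and Ces1c overlapped.

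The ratio of Ces3b to Ces3a was 0.124, 0.193, 0.235 and 0.136 in hypothyroid WT, 0.908, 0.605, 0.359 and 0.554 in hyperthyroid WT and 0.165, 0.518, 0.229 and 0.242 in L-NCOR1ΔID liver. Every hyperthyroid ratio exceeded every hypothyroid WT ratio, while the mutant overlapped both. The log2 ratio was 1.79 higher under T3 (exact permutation p = 0.0286, adjusted p = 0.0571) and 0.66 higher in the mutant (exact permutation p = 0.171, adjusted p = 0.171). Ces3a and Ces3b share 30.9% and 26.1% of their transcripts' 50-base windows with each other, and Ces1b and Ces1c share 9.92% and 10.7%, so a part of the reads of each pair could not be assigned by sequence alone. The other 6 genes shared at most 3.36% of their windows with any family member.

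**Figure D3:**
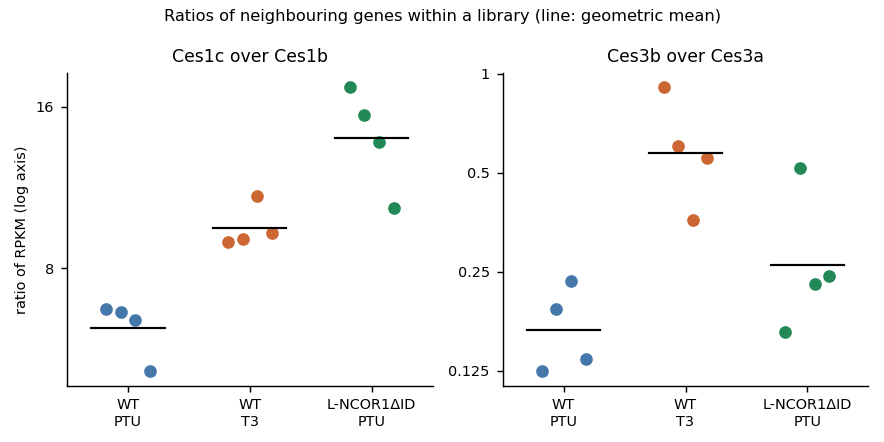
RPKM of Ces1c divided by that of Ces1b (left) and of Ces3b divided by that of Ces3a (right) in each library (log y axis) of the 3 groups, with the geometric mean as a line. The Ces1c ratios were 5.13 to 6.70 in hypothyroid WT liver and at least 8.94 in the other groups, and the Ces3b ratios were highest in hyperthyroid WT liver.

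Both the amount and the makeup of carboxylesterase mRNA were then compared, with no test. The 10 genes summed to 2786 ± 177 RPKM (SD, n = 4) in hypothyroid WT, 2190.2 ± 138 in hyperthyroid WT and 2420.2 ± 291 in L-NCOR1ΔID liver, or 0.696 ± 0.0548%, 0.567 ± 0.0267% and 0.617 ± 0.0766% of the RPKM of all genes. Libraries ranged from 2573 to 3006, from 2061 to 2385 and from 2046 to 2726 RPKM, so hyperthyroid and hypothyroid WT did not overlap and the mutant overlapped both. The share of Ces1c in the sum was 26.9 ± 2.11% in hypothyroid WT, 54.6 ± 0.814% in hyperthyroid WT and 34.8 ± 4.50% in mutant liver. Ces1f made up 9.23 ± 0.966%, 1.47 ± 0.383% and 8.20 ± 0.202% in the same order. Ces2a made up 3.94 ± 0.406%, 2.64 ± 0.380% and 12.6 ± 1.25%, and Ces3a 18.2 ± 2.66%, 15.1 ± 3.43% and 8.78 ± 3.50%.

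**Figure D4:**
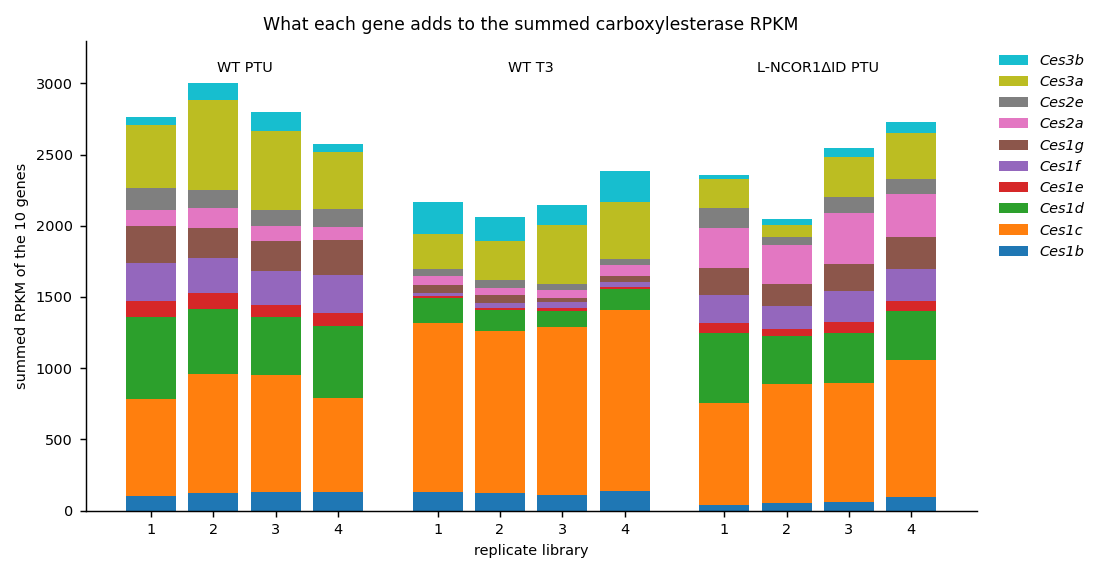
Summed RPKM of the 10 carboxylesterase genes (y axis) in each library (x axis, replicates 1 to 4 of each group), with the part of each gene in colour. Ces1c (orange) made up 54.6% of the sum in hyperthyroid WT liver against 26.9% in hypothyroid WT liver, and Ces2a (pink) was widest in L-NCOR1ΔID liver at 12.6%.

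The deposited list of 37200 liver regions with acetylated H3K9 or H3K27, marks of active promoters and enhancers, was used to place the genes. It pools the conditions and gives positions only, so it shows nothing of change. The start sites of all 10 genes lay in a region, as did 86.1% of 12215 tested genes with a position. Their regions had a median length of 16812 bp, against 3993 bp over those genes. At Ces1f the region chr8:95769184-95808640 (39457 bp) covered the whole gene, chr8:95780135-95803646, and was longer than 99.9% of all regions. The regions at Ces3a (20579 bp) and Ces3b (21158 bp) also spanned their whole genes, while the shortest, 3860 bp, lay at Ces2e. The start sites of Ces1a, Ces2b, Ces2d-ps, Ces2f and Ces2h, all under 1 RPKM in every library, lay outside any region, as did that of Ces1h, which has no row in the RNA table. Long regions lay at genes that fell under T3 and also at Ces1b (23629 bp) and Ces1c (18286 bp), which did not.

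**Figure D5:**
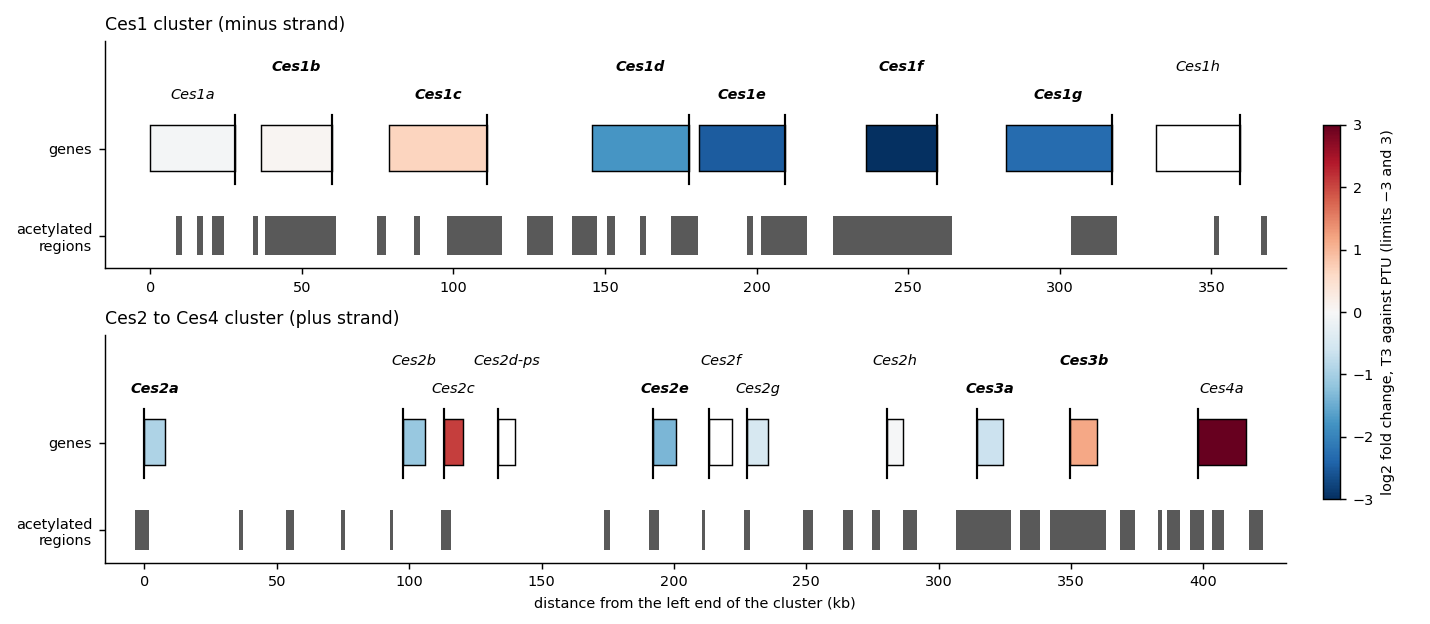
Map of the Ces1 cluster (top) and the Ces2 to Ces4 cluster (bottom) by distance in kb from the left end of each, with genes as boxes coloured by log2 fold change under T3 (colour limits -3 and 3, exceeded by Ces1f and Ces4a; uncoloured for Ces1h, Ces2d-ps and Ces2f, which have no test), start sites as ticks, names of the 10 genes in bold and acetylated regions as grey bars. Genes lowered and raised by T3 lie side by side in both clusters.

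Of 46 acetylated regions within 100 kb of a member's start, at least 1 held the AGGTCA repeat spaced by 4 bases on either strand, against 102 of all 37200 (0.274%). Matches were kept only for regions in or close to the 2 clusters, so those of the 46 further away were not covered. The region found is shown because its repeat occurs in 2 overlapping copies, at chr8:107691098-107691123 on the plus strand of mm9, with the AGGTCA units in capitals.
Repeat beyond Ces4a: AGGTCAgctgAGGTCAgctgAGGTCA
This site lay 83445 bp downstream of the Ces3b start and 35398 bp downstream of the Ces4a start, but only 3451 bp from the start of Cbfb, a transcription factor subunit outside the family that was itself higher under T3 (1.13, limma adjusted p = 0.00087). The 40 regions within the 2 clusters held no exact copy. A match in sequence does not show binding.

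Of 10 other carboxylesterase genes listed for comparison, 9 were in the table and 6 were tested. By limma 2 were higher and 2 lower under T3 (24.5% and 7.71% of all genes), and 0 were called in the mutant. There Ces2b, Ces2g and Ces4a were below WT at an unadjusted p under 0.05, against 7.77% of all genes, and the groups did not overlap for Ces2g, against 5.36%. Ces4a, at the end of the Ces2 to Ces4 cluster, measured 0.198, 0.996, 8.08 and 1.22 RPKM in hypothyroid WT, 61.2, 67.9, 117 and 84.0 in hyperthyroid WT and 0.0400, 0.0540, 0.203 and 0.606 in L-NCOR1ΔID liver. Its levels were near 0 without hormone in both genotypes, except for hypothyroid WT replicate 3, and high in every hyperthyroid library (5.87 ± 0.81 SE, limma adjusted p = 0.00047). Without that replicate the log2 fold change was 6.73. Ces2c, an intestinal and hepatic lipid hydrolase, measured 6.93, 10.3, 14.0 and 3.48 RPKM in hypothyroid and 47.4, 28.4, 28.6 and 30.4 in hyperthyroid WT liver (2.08 ± 0.38 SE, limma adjusted p = 0.0020). It shares 67.5% of its windows with Ces2d-ps, so its reads are uncertain. Ces2g (-0.51 ± 0.09 SE, limma adjusted p = 0.0015) and the scarcely expressed Ces2b (-1.15 ± 0.28 SE, limma adjusted p = 0.0083) were lower.

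Among 18 other liver ester and epoxide hydrolases, 17 were tested, and under T3 8 were lower, against 7.71% of all genes, and 5 higher, a share near the 24.5% of all genes. Of these by size of change were Pnpla3 (5.24) and Mgll (2.04), lipid hydrolases that were higher, and Ephx1 (-1.63), Pon1 (-1.40), Ephx2 (-1.19), Cmbl (-1.10) and Bche (-0.75), which were lower. Pnpla2, the adipose triglyceride lipase also active in liver, was higher (1.04). In L-NCOR1ΔID liver 0 of the 17 were called by limma.

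All 10 genes on a list of known or likely regulators of carboxylesterases were tested. Under T3 4 were lower and 2 higher, against 7.71% and 24.5% of all genes. In the mutant 2 were lower, against 0.544%. Nr1i3 (CAR), a drug-sensing nuclear receptor, was lower both under T3 (-1.97, limma adjusted p = 2.3e-05) and in the mutant (-1.07, adjusted p = 0.0014), and the direct comparison gave a further difference of -0.90 (adjusted p = 0.0012). Nr0b2 (SHP, -1.11), Nfe2l2 (NRF2, -0.53) and Nr1i2 (PXR, -0.38) were also lower under T3. Nr3c1, the glucocorticoid receptor (0.73), and Hnf4a (0.42) were higher, but Hnf4a was not called after scaling by gene ratios. In the mutant Nr1h4, the bile acid receptor FXR, was lower (-0.62, limma adjusted p = 0.00088). Ppara, Thra and Thrb passed in no comparison.

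The genes whose pattern over the 12 libraries was most like that of Ces1f, among 10650 genes outside the family with a mean of at least 1 RPKM, were Chdh, Hsd17b6 and Nat8 (Pearson r = 0.992 on log2 values for each). For Ces2a they were Dbi (r = 0.97), Gm4956 (r = 0.97) and Mri1 (r = 0.97). Dbi, which encodes an acyl-CoA binding protein, averaged 292, 223 and 483 RPKM in hypothyroid WT, hyperthyroid WT and L-NCOR1ΔID liver, and Gm4956 averaged 2.25, 0.239 and 17.4. The libraries fall into 3 groups, so these values mostly reflect differences between group means.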

How the data were processed

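Liver poly(A) RNA-seq from 12 mice was used. Per the labels and the study's methods, the authors aligned reads to mm9 with STAR and counted them in exons with HOMER (versions not given in the sources used here), and deposited RPKM per RefSeq transcript. The first listed transcript stood for each gene, and 1 transcript row without a name was left out. Genes reaching 0.1 RPKM in 4 or more libraries of a comparison entered the test, made on log2(RPKM + 0.1) with limma 3.58.1 (R 4.3.3, eBayes with trend), adjusted by Benjamini-Hochberg and called at an adjusted p under 0.01. Fold changes on this scale understate changes of low genes. The members and lists were chosen with earlier results of these data known. All 10 members were named. Listed genes called in a comparison were named, at most 8 a list by size, with the 3 genes most like the member of largest change in each comparison with hypothyroid WT. Simulated data held 200 changed genes (log2 change of 2), and 13801, 13646 and 13877 genes passed the filter for T3, mutant and direct comparison. Of the changed genes that passed it, 92.8%, 87.8% and 86.8% were recovered. Depth was estimated from the steps of low RPKM values of 9 to 19 genes a library. The deposited region list gives start and end positions. The search for the repeat near the members and the ratios were added after seeing the data. Protein sequences were not used here.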

Additional observations from a re-analysis of the deposited data

Results flagged for a closer look

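In groups of 4, a value far from the other 3 was looked for in 42 sets of values (the 10 genes, their sum, Ces2c, Ces2g and Ces4a in 3 groups), and 5 stood out by Dixon's test. Chance gives about 1 in 20. In hypothyroid WT liver Ces1b was 102 RPKM in replicate 1, against 125 to 129 in the others, and Ces4a was 8.08 RPKM in replicate 3, against 0.198 to 1.22. In hyperthyroid WT liver Ces1e was 13.7 RPKM in replicate 1, against 19.0 to 19.5, and Ces2c was 47.4 RPKM in the same replicate, against 28.4 to 30.4. In L-NCOR1ΔID liver Ces1d was 487 RPKM in replicate 1, against 334 to 349.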

How the results depend on the processing

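Over 540 recomputed fold changes of the 10 genes (alternative pseudocounts, filters, fits, thresholds, scaling, transcripts and libraries left out), 515 stayed on the same side of the threshold in the same direction, 14 gained and 9 lost a call, and 2 changed sign, both for Ces1b under T3 (-0.19 after scaling by gene ratios and -0.028 without hypothyroid replicate 1, in a range of -0.028 to 0.12 over single libraries left out), which was not called. Under T3 the count of higher genes was 2 at an adjusted p under 0.05, 0 after scaling, and 1 to 2 with 1 library left out, while the count of lower genes was 6 in each of the latter. In L-NCOR1ΔID liver the count of lower genes was 1 at an adjusted p under 0.05 and 0 to 1 with 1 library left out. In the direct comparison the count of higher genes was 1 after scaling, 1 to 2 with 1 library left out, and 3 at an adjusted p under 0.05, at a mean of at least 1 RPKM, in a fit of all 12 libraries and without a variance trend, where Ces1c passed.

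Replicate numbers did not pair the samples: deviations of same-numbered libraries correlated at -0.082 to 0.085 between both WT groups, at -0.21 to 0.27 between hypothyroid WT and the mutant and at -0.045 to 0.040 for the direct comparison, with 2, 1 and 0 of 4 libraries closest to their own number. With a replicate block, 0 of the 10 genes were higher in the mutant (Ces2a 1.47, adjusted p = 0.012), where calls over all genes went from 100 higher and 75 lower to 20 and 25, and from 2176 and 799 to 1152 and 490 in the direct comparison. No other call of the 10 genes changed with the block.

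The summed RPKM in hyperthyroid WT liver was 1969 after scaling, and the median number of acetylated regions near a member was 10.5 within 100 kb and 5.5 within 50 kb. At an adjusted p under 0.05, calls over all genes rose to 5244 higher and 1636 lower under T3, 344 and 257 in the mutant and 3995 and 1412 in the direct comparison. Scaling gave 1048 and 1293 in the latter. The mutant comparison gave 118 lower genes in a fit of all 12 libraries, 63 higher without a variance trend, and 36 to 110 higher and 28 to 77 lower with 1 library left out. The cause was not tested. Both ratios kept their direction with each library left out, an alternative chosen after seeing the data. Depth is an estimate, since the files hold RPKM and no counts.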
